A study of Homo sapiens with 4 samples.

Results

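A stretch of the short arm of chromosome 17 carries a run of neighbouring genes that were higher in the reporter-positive line than in the reporter-negative line of a human breast cancer cell pair. Its members are the protein-coding genes of GENCODE release 29 that start between 14.3 and 21.3 Mb of chromosome 17 (GRCh38) and have a mean CPM (counts scaled to library size) of at least 1 over the 4 libraries. There are 72 such genes, out of 43714 genes in the count table, and 8 further protein-coding genes of the stretch lay under that level. The stretch was selected on the fold changes of its genes in this same comparison, so the fold changes and calls below describe it and test nothing.

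Both lines come from MDA-MB-231, a triple-negative breast cancer line, and both carry the 7TGP plasmid, in which 7 binding sites for the TCF factors of the Wnt pathway drive EGFP, and were selected with puromycin at 3 ug/mL. The reporter-positive line (MDA-MB-2317TGP-POS, 2 libraries) was more than 80% EGFP-positive and the reporter-negative line (MDA-MB-2317TGP-NEG, 2 libraries) more than 95% EGFP-negative after 8 rounds of sorting and regrowth. The reporter-negative libraries are labelled as control and only the positive ones as 7TGP-transfected, but the treatment text derives both by sorting 1 transfected line. Both were grown in DMEM with 10% FBS, and all 4 libraries carry the same batch label. There is 1 sorted line per reporter state. Nothing in the labels ties the 2 libraries of a state to different cultures, so the replicate error, and every p-value built on it, may be purely technical. Whatever else distinguishes the sorted lines is confounded with reporter state and cannot be told apart. Library totals ran from 55894092 to 63034563 counts. Of the mesenchymal markers listed for this line, VIM, FN1, AXL, CD44, ZEB1 and CAV1 were all expressed. VIM and CAV1 passed as lower (log2 fold changes -1.04 and -0.49) and CD44 as higher (0.23). SPARC averaged 1.04 CPM in the reporter-positive and 0.823 CPM in the reporter-negative line. Of the genes listed as low in this line, the epithelial gene CDH1 averaged 0.747 and 0.587 CPM, in the same order, and PGR 0.434 and 0.474 CPM. ESR1 averaged 5.78 and 4.97 CPM, EPCAM 4.58 and 4.65 CPM, and GATA3 2.69 and 3.39 CPM. Of the 2 endothelial markers listed, PECAM1 averaged 67.3 and 80.9 CPM and CDH5 0.396 and 0.241 CPM. The leucocyte genes were low, PTPRC at 2.83 and 1.99 CPM and CD3E at 0.0573 and 0.0884 CPM. So were the fibroblast genes, COL1A1 at 4.14 and 3.80 CPM and DCN at 0.430 and 0.209 CPM. VIM was at 1299 CPM in the reporter-positive and 2668 CPM in the reporter-negative line, and whether this moves with the block was not tested. In such bulk libraries fewer cells expressing a gene and less RNA per cell cannot be told apart.

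The region is known from human genetics. Low-copy repeats along it promote recurrent deletions and duplications, among them the deletion of Smith-Magenis syndrome, in which RAI1 is the gene responsible, and the duplication or deletion of PMP22 in inherited neuropathies. The genes side by side there have little function in common: they encode ubiquitin, a nuclear co-repressor, kinases, mitochondrial proteins, actin-binding proteins and transporters. Several members have near-identical copies elsewhere in the region.

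Most members were higher. Their log2 fold changes had a quartile width close to that of all expressed protein-coding genes but a smaller SD (0.33 against 0.46). The median log2 fold change of the 72 members was 0.56, a 1.48-fold higher level in the reporter-positive line, against -0.00 over all 30952 genes tested. The quartiles of the members were 0.37 and 0.71 on the log2 scale, a width of 0.34 against 0.35 for all expressed protein-coding genes; 67 members were above 0 and 5 below, and the extremes were 1.32 for ADORA2B and -0.68 for SLC47A1. In classes of log2 fold change, 21 members fell between 0.25 and 0.5, 26 between 0.5 and 0.75, 10 between 0.75 and 1, and 4 at 1 or more. By edgeR's quasi-likelihood test over all genes, at an adjusted p under 0.05, 57 members passed as higher, where 11.6% of all tested genes did, and 3 as lower, where 10.9% did; 12 did not pass. Both reporter-positive libraries lay above both reporter-negative libraries for 64 members, where 28.2% of all tested genes did so, and below them for 3, where 29.5% did. Among the 14390 expressed protein-coding genes, 16.3% passed as higher and 16.8% as lower, and the reporter-positive libraries lay above for 32.7% and below for 34.6%. With scaling to total counts in place of TMM, higher genes made up 36.0% rather than 51.5% of all calls in the genome, and 49 members passed as higher. Without the reporter-negative library numbered 1 the counts were 46 higher and 1 lower, and without the one numbered 2 they were 47 and 0.

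**Figure D1:**
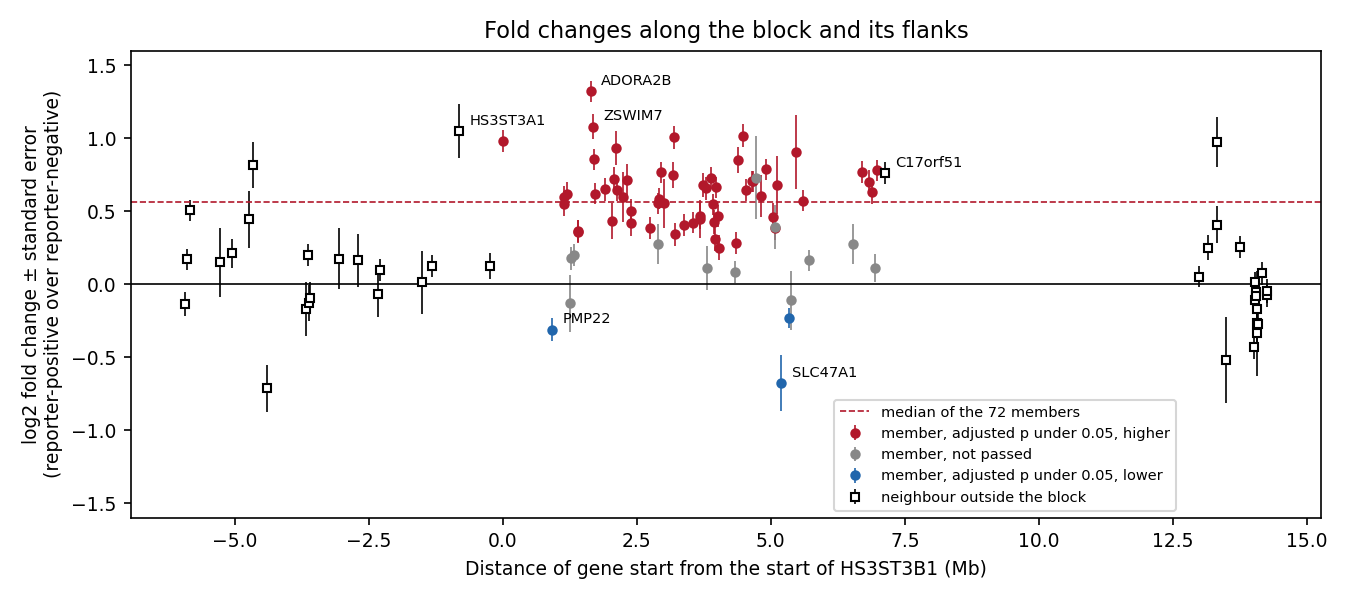
Log2 fold change (reporter-positive over reporter-negative, with its standard error from edgeR) of the 72 members and of the nearest 20 expressed protein-coding genes on each side, by distance of the gene start from that of HS3ST3B1 in Mb. The members sit around a median of 0.56 while most neighbours lie near 0; ALDOC, the farthest neighbour downstream, lies off the axis at -3.48.

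Single libraries gave the same picture. The median log2 ratio of the members was 0.55 and 0.61 for the reporter-positive library numbered 1 over the reporter-negative libraries numbered 1 and 2, and 0.54 and 0.55 for the reporter-positive library numbered 2 over the same pair. Within a line the medians were -0.00 for the reporter-positive and -0.02 for the reporter-negative libraries, number 2 over number 1. The 40 flanking genes had medians between 0.01 and 0.09 in the same 4 comparisons between lines.

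**Figure D2:**
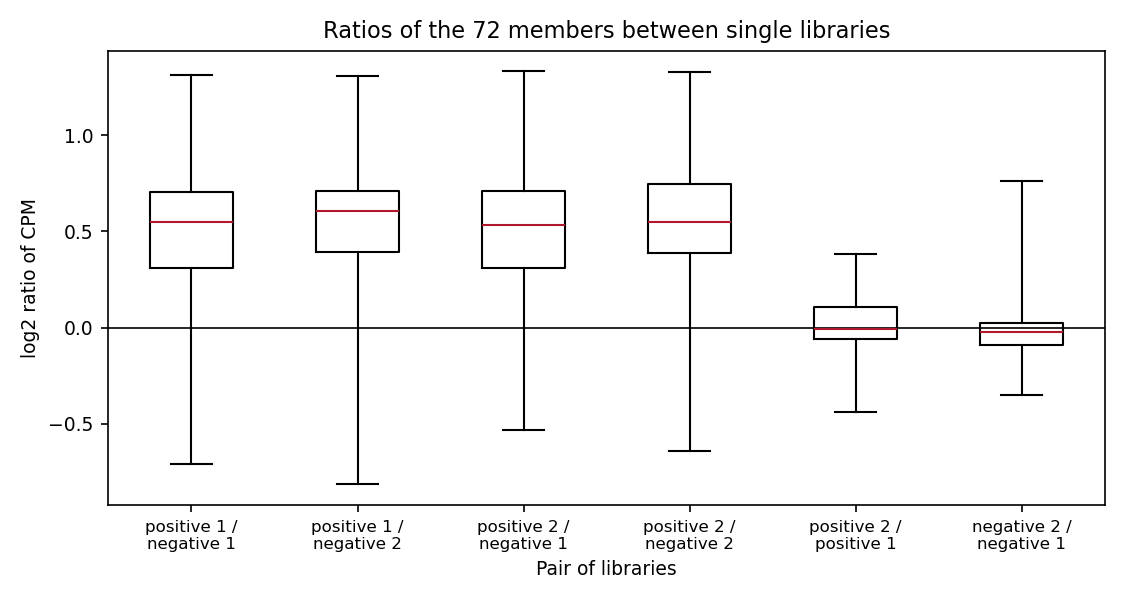
Log2 ratio of CPM of the 72 members for each pair of libraries; boxes span the quartiles with the median as a red line, and whiskers reach the lowest and highest member. The 4 ratios between lines have medians from 0.54 to 0.61, and the 2 ratios within a line have medians of -0.00 and -0.02.

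Along the stretch, the higher genes were not an unbroken run. HS3ST3B1 was above 0 and PMP22 below, 3 members from CDRT4 to TVP23C were above 0, and CDRT1 was below. From AC005324.3 to RNF112, 54 members in a row had a log2 fold change above 0. Next came SLC47A1, ALDH3A2 and SLC47A2, 3 neighbours below 0, and then 9 members above 0 from ULK2 to MAP2K3. In windows of 1 Mb by gene start, the median log2 fold change was 0.60 from 15.3 to 16.3 Mb (13 members), 0.59 from 16.3 to 17.3 Mb (13 members), 0.51 from 17.3 to 18.3 Mb (16 members), 0.67 from 18.3 to 19.3 Mb (12 members), 0.39 from 19.3 to 20.3 Mb (10 members) and 0.67 from 20.3 to 21.3 Mb (6 members). The first window, from 14.3 to 15.3 Mb, held only HS3ST3B1 and PMP22, which went opposite ways. Across the 72 members the fold change had a Spearman coefficient of -0.04 with start position, 0.15 with the mean level and -0.11 with span length; these run across genes that share libraries and, in part, reads.

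ADORA2B, the gene of the low-affinity A2B adenosine receptor, had the largest fold change of the block. It lies at 15944917 to 15975746 on the forward strand, and no other listed gene overlaps it. ADORA2B was at 49.4 and 50.04 CPM in the reporter-positive libraries, against 19.9 and 19.9 CPM in the reporter-negative libraries. The groups were far apart relative to their spread, with a log2 fold change of 1.32 and a standard error of 0.07. Its neighbour ZSWIM7 was at 38.8 and 36.7 CPM in the reporter-positive libraries, against 19.2 and 16.5 CPM in the reporter-negative libraries, a log2 fold change of 1.08 ± 0.08 (standard error). Part of the ZSWIM7 count may be that of TTC19, which overlaps it on the opposite strand and has 314.5% of its counts.

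RASD1, TVP23B and HS3ST3B1 followed with the next largest fold changes. RASD1, a Ras-like GTPase gene induced by glucocorticoids, was at 58.3 and 65.5 CPM in the reporter-positive libraries, against 31.9 and 29.7 CPM in the reporter-negative libraries (log2 fold change 1.01, standard error 0.08). TVP23B, a Golgi membrane protein gene, was at 57.4 and 61.2 CPM in the reporter-positive libraries, against 30.9 and 27.6 CPM in the reporter-negative libraries (log2 fold change 1.02, standard error 0.08). HS3ST3B1, which encodes a sulfotransferase that modifies heparan sulfate chains, was at 38.3 and 39.8 CPM in the reporter-positive libraries, against 19.6 and 19.99 CPM in the reporter-negative libraries (log2 fold change 0.98, standard error 0.08). In none of these 3 genes did libraries of the lines overlap.

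UBB had the highest level, also per length. This gene encodes polyubiquitin B, a source of free ubiquitin for tagging proteins, and lies at 16380798 to 16382745. UBB was at 576 and 655 CPM in the reporter-positive libraries, against 373 and 375 CPM in the reporter-negative libraries (log2 fold change 0.72, standard error 0.09). Per kb of exon this was 380 CPM in the reporter-positive and 231 CPM in the reporter-negative line, with FLII next at 70.5 and 52.4 CPM per kb. An antisense gene, AC093484.3, overlaps UBB and had 81.0% of its counts, so these reads cannot be told apart, and 12.7% of the 50-base strings of UBB transcripts also occur in other genes.

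The other members with the highest counts differed in the same direction. USP22, a deubiquitinase of the SAGA transcription complex, was at 379 and 406 CPM in the reporter-positive libraries, against 229 and 232 CPM in the reporter-negative libraries. ALKBH5, an RNA demethylase that removes N6-methyladenosine, was at 185 and 198 CPM in the reporter-positive libraries, against 112 and 119 CPM in the reporter-negative libraries. NCOR1, a co-repressor of nuclear receptors, was at 210 and 215 CPM in the reporter-positive libraries, against 140 and 137 CPM in the reporter-negative libraries. Their log2 fold changes were 0.77, 0.73 and 0.62, and no library of either line overlapped the other line. Each overlaps another gene in part of its span and may share reads with it. In total counts, CCDC144NL-AS1 stood at 45.9% of USP22, AC087164.1 at 37.6% of ALKBH5, and TTC19 at 49.6% of NCOR1. These are ratios of totals and do not measure the reads shared.

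FLII and MPRIP, 2 genes of actin-binding proteins, had smaller ratios. FLII was at 433 and 478 CPM in the reporter-positive libraries, against 330 and 347 CPM in the reporter-negative libraries (log2 fold change 0.43). MPRIP, whose product brings myosin phosphatase to actin, was at 401 and 399 CPM in the reporter-positive libraries, against 312 and 300.0 CPM in the reporter-negative libraries (log2 fold change 0.39). RAI1, a chromatin-associated regulator, was at 108 and 99.6 CPM in the reporter-positive libraries, against 81.5 and 75.4 CPM in the reporter-negative libraries (log2 fold change 0.40). LRRC75A was at 145 and 161 CPM in the reporter-positive libraries, against 98.7 and 96.7 CPM in the reporter-negative libraries (log2 fold change 0.65), but LRRC75A-AS1 on the opposite strand overlaps it with 203.1% of its counts. ZNF286A was at 94.9 and 108 CPM in the reporter-positive libraries, against 77.1 and 80.2 CPM in the reporter-negative libraries (0.37). AC005324.4 overlaps ZNF286A and was at 95.5 and 108.5 CPM, against 77.6 and 81.1 CPM, in the same order (0.36). The pseudogene UBE2SP1 held 66.2% and 65.7% of their counts. Without the reporter-negative library numbered 1 their log2 fold changes were 0.34 and 0.33. The calls for FLII and MPRIP were lost without the reporter-negative library numbered 1 (log2 fold changes 0.40 and 0.42), and those for RAI1 and MPRIP without the one numbered 2 (0.34 and 0.35).

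**Figure D3:**
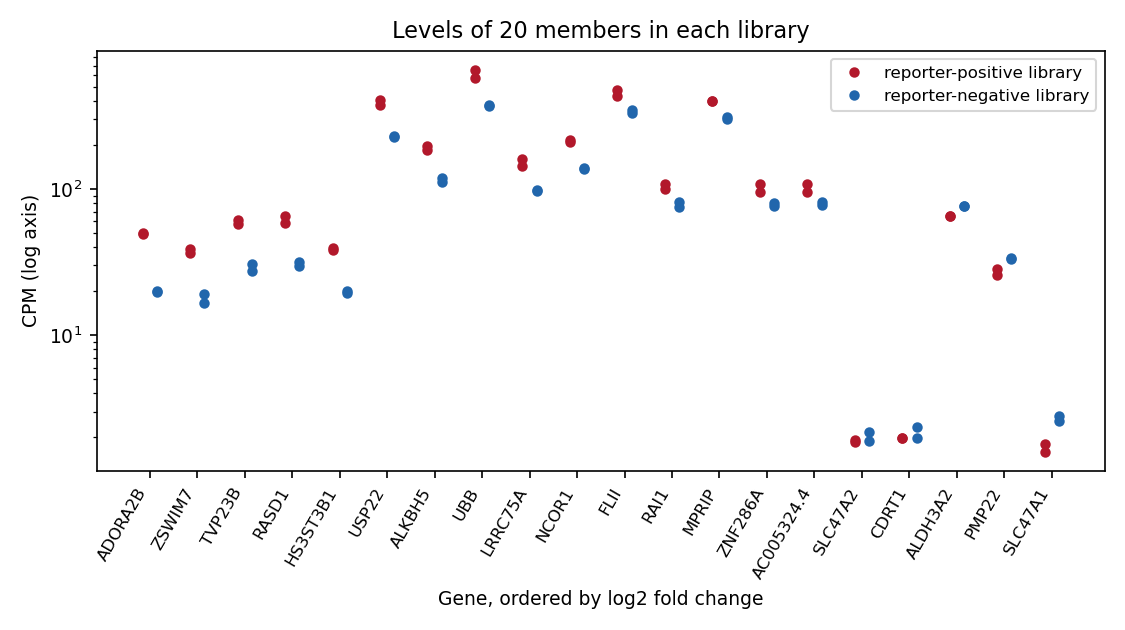
CPM on a log axis in each reporter-positive (red) and reporter-negative (blue) library for 20 members: those with the highest levels and those with the largest and smallest fold changes, ordered by log2 fold change. ADORA2B at the left stands near 50 against 20 CPM, and PMP22, ALDH3A2 and SLC47A1 at the right are lower in the reporter-positive line.

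The members that were lower were few and near each other or near the upstream edge. PMP22, which encodes a peripheral myelin protein also found in epithelia, was at 25.7 and 28.3 CPM in the reporter-positive libraries, against 33.2 and 33.7 CPM in the reporter-negative libraries (log2 fold change -0.31, standard error 0.08). ALDH3A2, a fatty aldehyde dehydrogenase gene, was at 65.3 and 65.1 CPM in the reporter-positive libraries, against 76.3 and 76.8 CPM in the reporter-negative libraries (-0.23, standard error 0.07). SLC47A1, a multidrug and toxin extrusion transporter gene, was at 1.59 and 1.79 CPM in the reporter-positive libraries, against 2.60 and 2.80 CPM in the reporter-negative libraries (-0.68, standard error 0.19). The lines did not overlap in these 3 genes. The calls for PMP22 and ALDH3A2 were lost without either reporter-negative library, with log2 fold changes of -0.32 and -0.23 without number 1 and -0.30 and -0.23 without number 2, and that for SLC47A1 without number 2 (-0.62) and with DESeq2 (-0.67).

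SLC47A2, a related transporter gene, was at 1.91 and 1.85 CPM in the reporter-positive libraries, against 2.19 and 1.87 CPM in the reporter-negative libraries. CDRT1 was at 1.99 and 1.96 CPM in the reporter-positive libraries, against 2.36 and 1.97 CPM in the reporter-negative libraries. The libraries of the lines overlapped in both, and both log2 fold changes became 0.01 without the reporter-negative library numbered 1. ALDH3A1, the aldehyde dehydrogenase gene next to SLC47A2, was under the level for a member, at 22 and 15 counts in the reporter-positive and 36 and 87 counts in the reporter-negative libraries (log2 fold change -1.62), and passed as lower. Of the other protein-coding genes under that level, the near-identical galectin genes LGALS9C and LGALS9B passed as higher (1.43 and 1.33), 4 did not pass and EVPLL was not tested. LGALS9C had 38 and 32 counts in the reporter-positive and 9 and 19 counts in the reporter-negative libraries. LGALS9B had nearly the same, 39 and 29 against 10 and 19 counts, and whether the 2 share reads was not tested.

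Promoter windows of ADORA2B, UBB and PMP22 are shown because they belong to the largest rise, the highest level and a fall in the block. That of ZNF287, a zinc finger gene, is shown because it alone among the 58 members with a window holds CTTTGAT or CTTTGAA. These are forms of the TCF/LEF core motif, the kind of site that drives the reporter. Other forms of the motif were not searched. Each window runs from 250 bases before to 50 bases after the RefSeq transcript start (GRCh38.p14), read 5′ to 3′ on the gene's strand. They are chr17:15944880-15945179 for ADORA2B and chr17:16381040-16381339 for UBB on the forward strand, and chr17:15265277-15265576 for PMP22 and chr17:16569155-16569454 for ZNF287 on the reverse strand. The UBB window lies wholly inside the span of the gene, 16380798 to 16382745, past its annotated start. It belongs to an internal transcript start and is not the sequence before the start of the gene. Capitals mark the motif.
ADORA2B: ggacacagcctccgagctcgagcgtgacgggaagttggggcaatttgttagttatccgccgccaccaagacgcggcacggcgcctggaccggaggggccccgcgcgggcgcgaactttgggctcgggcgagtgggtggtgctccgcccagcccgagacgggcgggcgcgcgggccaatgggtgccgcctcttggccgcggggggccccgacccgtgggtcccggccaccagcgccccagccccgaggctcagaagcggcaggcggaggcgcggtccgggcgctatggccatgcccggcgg
UBB: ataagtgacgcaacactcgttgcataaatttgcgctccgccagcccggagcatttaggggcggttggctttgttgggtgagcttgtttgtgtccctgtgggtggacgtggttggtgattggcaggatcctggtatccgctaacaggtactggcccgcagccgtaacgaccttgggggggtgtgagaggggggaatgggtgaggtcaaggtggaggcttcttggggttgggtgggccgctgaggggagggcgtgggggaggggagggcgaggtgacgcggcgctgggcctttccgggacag
PMP22: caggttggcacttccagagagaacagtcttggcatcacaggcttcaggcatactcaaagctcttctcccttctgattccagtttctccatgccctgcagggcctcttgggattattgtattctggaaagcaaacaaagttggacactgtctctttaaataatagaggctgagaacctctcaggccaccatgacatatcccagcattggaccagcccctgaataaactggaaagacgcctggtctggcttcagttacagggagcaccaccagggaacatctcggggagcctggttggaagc
ZNF287: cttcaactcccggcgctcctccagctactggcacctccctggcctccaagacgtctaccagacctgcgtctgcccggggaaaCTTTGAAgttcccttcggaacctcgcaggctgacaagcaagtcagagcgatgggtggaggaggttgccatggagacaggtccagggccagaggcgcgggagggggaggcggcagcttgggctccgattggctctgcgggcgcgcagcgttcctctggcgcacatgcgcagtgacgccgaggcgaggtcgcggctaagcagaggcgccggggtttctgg
The letters CTTTGAT or CTTTGAA, searched on both strands, occur in 1 of the 58 members with a window (1.72%) and in 5.48% of 22198 windows of protein-coding genes. Each member has 1 window, while the 22198 were not reduced to 1 per gene, so the sets compared here are unlike. TVP23C shares its window with TVP23C-CDRT4, and ZNF286A with AC005324.4. In ZNF287 the match is CTTTGAA on the gene's own strand, at position -168 from the start. A match is a string of letters and not a shown binding site. The members' windows had a median GC content of 66.0% and a median of 25 CpG pairs, against 62.3% and 21 over all protein-coding windows. The window of ADORA2B had 41 CpG pairs, that of UBB, inside the gene, had 18 and that of PMP22 had 2. ZNF287 itself was at 4.23 and 3.47 CPM in the reporter-positive libraries, against 2.46 and 2.65 CPM in the reporter-negative libraries (log2 fold change 0.60, standard error 0.17).

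The counts of calls by role below stand against 16.3% of expressed protein-coding genes and 79.2% of all members passing as higher, and since the members were selected on this comparison nothing is read from them. The signalling genes had a median log2 fold change of 0.72 over 10 members, of which 9 passed as higher. The call for ULK2 was lost with DESeq2, without the reporter-negative library numbered 1 and without the reporter-positive library numbered 2, and that for GRAPL without the reporter-negative library numbered 2. MAP2K3, a kinase that activates p38, had a log2 fold change of 0.78 and MAPK7, the gene of the kinase ERK5, had 0.39. The autophagy kinase gene ULK2 had 0.91 at a low level, 1.70 ± 0.316 CPM in the reporter-positive and 0.906 ± 0.146 CPM in the reporter-negative line (SD, n = 2 each). AKAP10, a mitochondrial anchor for protein kinase A, had 0.57. FAM83G, which encodes a BMP pathway protein, had 0.70, and shares nearly all its counts with SLC5A10, the sugar transporter gene whose span it overlaps on the opposite strand (0.70).

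Ubiquitin and protein turnover genes had a median of 0.72 over 7 members, with 6 passing as higher. Besides UBB and USP22 they include COPS3, a COP9 signalosome subunit gene, at 76.8 ± 4.43 CPM in the reporter-positive and 45.1 ± 0.467 CPM in the reporter-negative line (SD, n = 2 each), and GID4, a substrate receptor of the CTLH ubiquitin ligase, at 22.8 ± 0.594 CPM in the reporter-positive and 14.2 ± 0.0729 CPM in the reporter-negative line (SD, n = 2 each). Neither overlaps another listed gene. TRIM16 did not pass, at 0.20, and the call for RNF112 was lost with total-count scaling, with DESeq2 and without the reporter-negative library numbered 2.

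All 11 listed members in transcription, chromatin and RNA passed as higher in the fit over all 4 libraries with TMM scaling, with a median of 0.62. Without the reporter-negative library numbered 1 the calls for ZNF286A, CENPV, ZNF287 and ZNF286B were lost, without the one numbered 2 those for CENPV, RAI1 and ZNF286B, without the reporter-positive library numbered 1 that for ZNF287, and with total-count scaling those for CENPV, ZNF287 and ZNF286B. They include the Mediator subunit gene MED9 (0.75), the KRAB zinc finger genes ZNF624 (0.71) and ZNF286A (0.37), and CENPV (0.43), a centromere protein gene. Of the 7 mitochondrial members 6 passed as higher, with a median of 0.56. The complex III assembly gene TTC19 had 0.86, the topoisomerase gene TOP3A 0.66, the cristae protein gene TMEM11 0.63, the nucleotidase gene NT5M 0.56, the ATP synthase assembly gene ATPAF2 0.47 and the fission factor gene MIEF2 0.31. The call for NT5M was lost with total-count scaling, with DESeq2 and without either reporter-negative library, and that for MIEF2 with total-count scaling, without the reporter-negative library numbered 1 and without the reporter-positive library numbered 2. PLD6 did not pass, at 5.76 ± 0.515 CPM in the reporter-positive and 4.75 ± 0.0467 CPM in the reporter-negative line (SD, n = 2 each), and lies where MPRIP, with far more counts, overlaps it.

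Metabolic enzymes had a median of 0.49 over 8 members, of which 6 passed as higher and ALDH3A2 as lower. DHRS7B, a gene of ether lipid synthesis, had 0.70, the GPI anchor gene PIGL 0.65, PRPSAP2 0.64, PEMT, which makes phosphatidylcholine, 0.34 and the folate enzyme gene SHMT1 0.25. The call for SHMT1 was lost in 7 alternatives: total-count scaling, no count filter, DESeq2, limma-voom, without either reporter-negative library and without the reporter-positive library numbered 1. That for PEMT was lost without the reporter-negative library numbered 2. NATD1 did not pass, at 16.96 and 14.9 CPM in the reporter-positive libraries, against 14.0 and 15.5 CPM in the reporter-negative libraries, which overlap. It stands apart from its neighbours TMEM11 and MAP2K3, and no other listed gene overlaps it.

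Of the 12 members in cytoskeleton, adhesion and membrane traffic 8 passed as higher and PMP22 as lower, with a median of 0.43. The endocytic adaptor gene EPN2 had 0.79, the polarity gene LLGL1 had 0.55, and the endosomal sorting gene TOM1L2 had 0.42. MYO15A, an unconventional myosin of hair cells, was at 9.21 and 6.79 CPM in the reporter-positive libraries, against 8.32 and 6.54 CPM in the reporter-negative libraries, and the lines overlapped. FLCN, the tumour suppressor folliculin, and SMCR8, a partner of C9orf72 in autophagy, had 0.59 and 0.47. Among transporters and channels, TRPV2 had 0.93, at 10.4 ± 0.612 CPM in the reporter-positive and 5.42 ± 0.257 CPM in the reporter-negative line (SD, n = 2 each), while SLC47A1 and SLC47A2 were below 0 as given above. The ciliary genes B9D1 and DRC3 had 0.46 and 0.45. The call for DRC3 was lost with total-count scaling and without the reporter-negative library numbered 2. Each is overlapped on the opposite strand, B9D1 by MAPK7 with 103.1% of its counts and DRC3 by ATPAF2 with 260.3%.

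At the upstream edge the fold changes did not step at 1 point. Outside it, COX10, a haem A synthesis gene, was at 18.8 and 16.7 CPM in the reporter-positive libraries, against 17.1 and 15.5 CPM in the reporter-negative libraries (log2 fold change 0.13). HS3ST3A1, farther out, was at 3.45 and 3.43 CPM in the reporter-positive libraries, against 1.53 and 1.81 CPM in the reporter-negative libraries (1.05). ELAC2, a tRNA processing gene, was at 78.8 and 84.1 CPM in the reporter-positive libraries, against 71.4 and 77.9 CPM in the reporter-negative libraries (0.13). COX10, between HS3ST3A1 and HS3ST3B1, thus lay near 0 while both sulfotransferase genes were high. In the same interval COX10-AS1 passed as higher, at 19.3 CPM in the reporter-positive and 15.9 CPM in the reporter-negative line (0.28). AC005224.1 (-0.10) and CDRT15 (-0.05), at lower levels, did not pass. The 2 sulfotransferase genes are close in sequence, with 9.78% of the 50-base strings of HS3ST3B1 transcripts also in HS3ST3A1. Inside the edge, CDRT4 (0.55) and TVP23C (0.62) were higher, at 22.0 and 20.3 CPM for CDRT4 in the reporter-positive libraries, against 14.9 and 13.9 CPM in the reporter-negative libraries. TRIM16 (0.20) and ZNF286A (0.37) lay between them and ADORA2B (1.32).

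At the downstream edge the last member, MAP2K3, was at 57.3 and 55.2 CPM in the reporter-positive libraries, against 33.5 and 31.9 CPM in the reporter-negative libraries. TMEM11 was at 21.4 and 20.4 CPM in the reporter-positive libraries, against 13.7 and 13.2 CPM in the reporter-negative libraries. C17orf51, which starts 128 kb past the edge and so is no member, was at 37.3 and 36.6 CPM in the reporter-positive libraries, against 21.8 and 21.7 CPM in the reporter-negative libraries (log2 fold change 0.76). The higher level therefore ran beyond the limit used here, as far as expressed protein-coding genes on this side of the centromere go. The next, WSB1, starts 5994 kb past the edge, on the far side of the centromere. WSB1 was at 61.5 and 57.5 CPM in the reporter-positive libraries, against 58.5 and 56.4 CPM in the reporter-negative libraries (0.05), with overlap between the lines. KSR1, a scaffold of the ERK cascade, was at 18.5 and 16.95 CPM in the reporter-positive libraries, against 14.9 and 14.98 CPM in the reporter-negative libraries (0.25).

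The flanks as a whole lay near the genome's median. The nearest 20 expressed protein-coding genes upstream had a median log2 fold change of 0.14, with 3 passing as higher and 1 as lower, and the nearest 20 downstream had -0.06, with 5 and 4, where 16.3% of expressed protein-coding genes passed as higher and 16.8% as lower. The 5 higher genes downstream are all among the nearest 10: C17orf51, KSR1, AC015688.4 (0.41), the galectin gene LGALS9 (0.97) and the kinase gene NLK (0.26). The call for KSR1 was lost with total-count scaling (log2 fold change 0.17), and with no count filter, DESeq2 and limma-voom (0.25 in each). AC015688.4 overlaps the spans of both KSR1 and LGALS9 and may share reads with them. All 188 expressed protein-coding genes upstream of the block on chromosome 17 had a median of -0.10, and all 603 downstream had -0.06. The signs of the flank medians turned with the number of genes taken: the nearest 10 downstream had a median of 0.15 and the nearest 40 upstream -0.03.

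Reads shared between genes touch many members. In this table a read is counted at each gene whose span it overlaps: in the 33 nested pairs of genes of the stretch, 17 of them on opposite strands, the outer gene had at least the inner gene's count in all 4 libraries. The 72 members form 51 groups of overlapping spans, and 13 members overlap no other listed gene. The median log2 fold change was 0.71 over those 13, of which 11 passed as higher and none as lower, and 0.61 with the member of most counts from each of the 51 groups. For the 45 members overlapped by a listed gene whose total counts reached 20% of their own it was 0.47, and for the other 27 it was 0.68. This split goes by the total counts of the overlapping gene, whatever the length of the overlap, and does not measure the reads shared.

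The median varied with the share of sequence found in other genes, without a single direction. For 14 members at least 20% of the 50-base strings of their transcripts also occur in a gene elsewhere, and their median log2 fold change was 0.39, against 0.72 for the 5 members with 5% to 20% shared and 0.57 for the 53 members with under 5% shared. The copies within the block differed in some pairs and were close, relative to their errors, in others. TVP23B and TVP23C, sharing 42.1% of the strings of TVP23B, had 1.02 and 0.62, and TRIM16L and TRIM16 had 0.85 and 0.20. ZNF286A and ZNF286B were closer, at 0.37 and 0.28 (standard error 0.08 each). GRAPL and GRAP had 0.61 and 0.73 (standard errors 0.14 and 0.29). GRAP did not pass, at 80 and 66 counts in the reporter-positive and 36 and 59 counts in the reporter-negative libraries. Reads of such copies may be assigned to either.

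Genes of the stretch that do not code for protein split by class. They are not independent of the members, since those that overlap a member are counted in part from the same reads, as with AC093484.3 and UBB. Of 79 such genes averaging at least 1 CPM, 63 were above 0, 42 passed as higher and 2 as lower, and the median log2 fold change was 0.50. Over the whole table, 713 of 5508 non-coding genes other than processed pseudogenes passed as higher and 606 as lower, with a median of -0.00. The median was 0.62 for 15 antisense genes, 0.72 for 13 lincRNA genes, 0.51 for 9 unprocessed pseudogenes and 0.65 for 9 small nucleolar RNA entries, all 9 of which passed as higher. The last include copies of SNORD3, the U3 RNA of ribosomal RNA processing, whose reads cannot be told apart between copies: SNORD3A was at 601 CPM in the reporter-positive and 395 CPM in the reporter-negative line. Processed pseudogenes, copies of spliced transcripts of genes that lie elsewhere, had a median of 0.07 over 23 genes, of which 5 passed as higher and 1 as lower. Over the whole table the median of 1798 processed pseudogenes was 0.02, and 160 passed as higher and 111 as lower. RPL13P12 was at 268 CPM in the reporter-positive and 239 CPM in the reporter-negative line, RPS18P12 at 113 and 115 CPM, and SCDP1 at 93.3 and 101 CPM, in the same order.

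**Figure D4:**
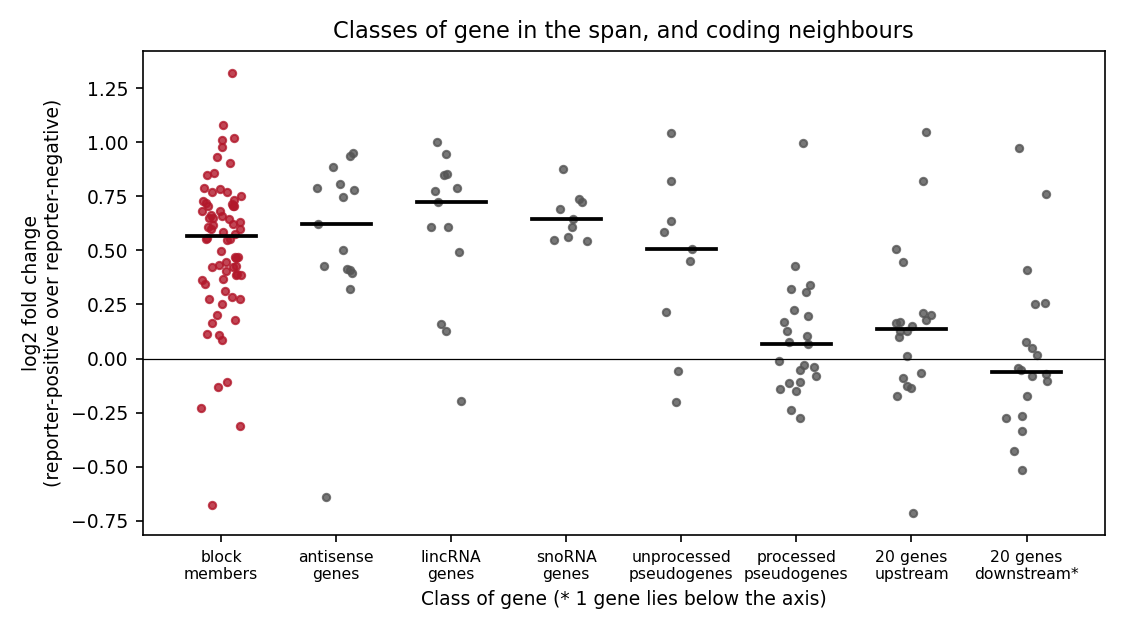
Log2 fold change (reporter-positive over reporter-negative) of the block's members, of other classes of gene in the same stretch averaging at least 1 CPM, and of the nearest 20 expressed protein-coding genes on each side; each point is a gene and the bar is the median. Processed pseudogenes (median 0.07) and flanks lie near 0, while the other classes have medians from 0.51 to 0.72.

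Some members contain such a pseudogene, among them TBC1D28, which did not pass, and CCDC144A and ZNF286A, which passed as higher. TBC1D28, at 63.1 and 71.7 CPM in the reporter-positive libraries, against 62.9 and 63.9 CPM in the reporter-negative libraries, had 85.8% of its counts in the processed pseudogene AC026271.1 inside it. Less those counts, TBC1D28 had 600 and 541 counts in the reporter-positive and 583 and 498 counts in the reporter-negative libraries, a log2 ratio of 0.20 in place of 0.09. CCDC144A, with 27.1% of its counts in UPF3AP1, had 0.59 in place of 0.42. In ZNF286A, where UBE2SP1 held 66.2% of the counts, the ratio was 0.25 in place of 0.37, so taking the pseudogene out did not raise every member. How far shared reads set the fold changes of these members was not tested beyond these values.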

How the data were processed

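RNA of 2 libraries per line was sequenced and the authors deposited raw counts per gene for the 4 libraries. Per the submitters' processing notes HISAT2, Bowtie2, DESeq2 and hg19 were used; which program counted reads, with which annotation and strand option, is not given in the sources used here. Each of the 43714 gene identifiers occurs in GENCODE release 29, from which names and GRCh38 positions were taken.

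Genes were tested with edgeR 4.0.16 (R 4.3.3) by its quasi-likelihood test with TMM scaling, a minimum count of 10 in the smaller group and Benjamini-Hochberg adjustment at 0.05 over 30952 genes. CPM values use TMM library sizes, and a fold change is the reporter-positive over the reporter-negative line. The standard error is the log2 fold change divided by the root of its F statistic. Counts of 55894092 to 63034563 per library are the depth behind these values. SDs are the spread between 2 libraries, while the standard errors also draw on variances estimated over all genes. DESeq2 1.42.0, limma-voom (limma 3.58.1), other scalings and filters, a replicate block and leaving out each library were alternatives.

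The members and gene lists were chosen with earlier results of these data known. Values in every library are given for the 10 members with the highest mean CPM, the 5 with the largest and the 5 with the smallest log2 fold change, and the 3 nearest each edge on either side; other members follow role lists. Further genes shown in single libraries were picked after their values were seen. Promoter windows are from RefSeq (GRCh38.p14). 1 gene of the stretch is not reported here.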

Additional observations from a re-analysis of the deposited data

How the results depend on the processing

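With total-count scaling in place of TMM, 2268 genes were called higher, the median log2 fold change of the block was 0.48, those of the upstream and downstream flanks were 0.053 and -0.15, and WSB1 changed sign to -0.032; the median of all genes moved to -0.09. Leaving out each library in turn gave 2333 to 4703 genes higher and 2025 to 4457 lower, a block median of 0.54 to 0.58, 46 to 57 members higher and 0 to 3 lower, an upstream flank median of 0.080 to 0.16 and a downstream one of -0.082 to -0.021. CDRT1 ranged from -0.26 to 0.011 and SLC47A2 from -0.22 to 0.012, changing sign without the reporter-negative library numbered 1. The block median was 0.62 over members with a mean CPM of at least 20, 0.50 over non-coding genes and pseudogenes, 0.71 over members that overlap no listed gene, and 0.61 with 1 member per group of overlapping members, an alternative chosen after seeing the data. The flank medians changed sign to 0.15 with the nearest 10 genes downstream and to -0.033 with the nearest 40 upstream. The cause of these shifts was not tested. With DESeq2 53 members were higher and 2 lower. Same-numbered libraries did not deviate together (r = 0.03 over 30952 genes), and the replicate block gave 60 members higher and 3 lower, 4175 genes higher and 4051 lower, and a block median of 0.56. Of the values for single genes under the alternatives, 307 kept direction and side of the threshold, 19 no longer passed, 1 newly passed and 3 changed sign. With 2 libraries per line and 1 line per state, the spread between lines of the same state is not measured.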
